A study of Rattus norvegicus with 6 samples.

Results

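The genes described here are Wdr82 and 9 other genes of the complexes that methylate lysine 4 of histone H3 (H3K4), namely Setd1a, Setd1b, Cxxc1, Ash2l, Rbbp5, Wdr5, Dpy30, Kmt2a and Kmt2d. They were chosen by gene name, together with every unannotated transcript of the table (a row with no Ensembl identifier) that overlaps one of them on the same strand. This gave 10 annotated genes and 8 unannotated transcripts, 18 of the 43035 features in the table. The cells were cardiomyocytes of Sprague-Dawley rats of postnatal day 1, grown in primary culture and collected 48 h after transfection with either a scrambled siRNA (si-NC) or an siRNA against DYRK1A (si-DYRK1A). Each group held 3 libraries, which the labels call biological replicates, and no allele or other treatment distinguished them. The study followed WDR82 as a protein partner of the kinase DYRK1A, and the data here measure only the mRNA of WDR82 and its partners.

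Methyl groups on H3K4 are added by large complexes of the COMPASS family. Each complex is built around one catalytic subunit with a SET domain (SETD1A, SETD1B, KMT2A, KMT2D and their relatives) and a shared core of WDR5, RBBP5, ASH2L and DPY30, which the catalytic subunit needs for full activity. A further pair of subunits belongs to the SETD1 complexes, namely WDR82, which binds the phosphorylated tail of initiating RNA polymerase II, and CXXC1, which binds unmethylated CpG dinucleotides. The trimethylated form, H3K4me3, marks active promoters, and KMT2D is a monomethylase of enhancers that the developing heart requires.

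The libraries held 10325074 to 11921772 counts each, and unannotated transcripts took 17.2% to 17.5% of them. The row of Dyrk1a itself held 3, 0 and 1 counts in si-NC and 2, 1 and 0 in the si-DYRK1A-labelled libraries. The unannotated transcript that covers it held 777, 919 and 968 counts in si-NC and 971, 851 and 944 in the si-DYRK1A-labelled libraries. Its log2 fold change was 0.08 (SE 0.0575, 95% interval -0.035 to 0.204, adjusted p = 0.374, edgeR). No lower mRNA level was thus seen at this locus in the si-DYRK1A-labelled libraries. The study showed the knockdown as protein, by immunoblot. Dyrk1a mRNA therefore does not check the labels, and each direction given here rests on them. Of 11 cardiomyocyte markers with a row, 6 (Tnni3, Myh6, Myh7, Myl2, Myl7 and Ryr2) had under 10 counts in every library, and all 6 were covered by an unannotated transcript. The summed level of the 11 markers was 20858 to 21811 CPM (counts scaled to library size) in si-NC and 23932 to 24955 CPM in the si-DYRK1A-labelled libraries. That of 9 fibroblast markers was 22107 to 26829 CPM and 20917 to 21674 CPM. Col1a1 and Col3a1, with mean log2 CPM of 13.6 and 13.1, held most of this fibroblast sum.

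Wdr82 (ENSRNOG00000048441) lay at chr8:114866768-114884635 on the plus strand in the coordinates of the table, which are those of Rnor_6.0 according to the methods of the study. An unannotated transcript of the same strand covered 57.0% of this span, and the 7686 bases at the 5′ end of the gene were outside it. The first base of the unannotated transcript, 114874454, was also the first base of Mirlet7g (ENSRNOG00000050242, positions 114874454 to 114874550), the gene of the microRNA let-7g, which lies within Wdr82. The row of Mirlet7g had 0 counts in all 6 libraries. It lies within both Wdr82 rows, and how reads of overlapping rows were counted was not given, so this 0 sets no limit on its level. Counts of an mRNA library also say little about a mature microRNA. The mature arms are shown because Wdr82 is their host gene, as RefSeq lists them on GRCr8, with the seed (bases 2 to 8) in capitals.
rno-let-7g-5p: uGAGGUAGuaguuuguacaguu
rno-let-7g-3p: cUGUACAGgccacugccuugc
The seed GAGGUAG is shared by 9 rat mature sequences of the RefSeq table, including let-7a, let-7b, let-7c, let-7d, let-7e, let-7f, let-7i and miR-98.

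The promoter of Wdr82 is shown because CpG dinucleotides are what the partner subunit CXXC1 binds. The 250 bases before its start in RefSeq are given for the plus strand of GRCr8 (chr8:115693047-115693296), a different build from that of the table, with every CG in capitals.
Wdr82 promoter: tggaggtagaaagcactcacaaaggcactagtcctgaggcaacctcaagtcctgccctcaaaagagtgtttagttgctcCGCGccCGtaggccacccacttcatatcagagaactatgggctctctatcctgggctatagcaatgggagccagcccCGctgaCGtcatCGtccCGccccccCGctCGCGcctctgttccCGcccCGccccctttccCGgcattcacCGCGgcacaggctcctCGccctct
This window held 16 CG dinucleotides, more than 76.2% of the 33469 promoter windows of the same length, whose median was 5. Of the 10 genes, 7 matched a window. Setd1b had the most CG, with 42 in a window of 84.8% G and C. Cxxc1 had 28, Setd1a 22 and Rbbp5 13. Wdr5 had 3, and the 2 windows of Dpy30 had 4 and 21. A CG in these windows is a description of the letters and not a binding site.

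How the counts of each gene fell between its annotated row and its unannotated transcript decided what could be measured. Unannotated transcripts covered at least 50% of 8 of the 10 genes, and none overlapped Wdr5 or Dpy30. Of the 8 covered genes, 5 (Cxxc1, Ash2l, Rbbp5, Kmt2a and Kmt2d) had under 10 counts in every library in their annotated row. In the table as a whole, 77.2% of 6885 covered protein-coding genes were that low, against 46.2% of 14871 that no unannotated transcript overlapped. The map of the 10 genes shows these spans.

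**Figure D1:**
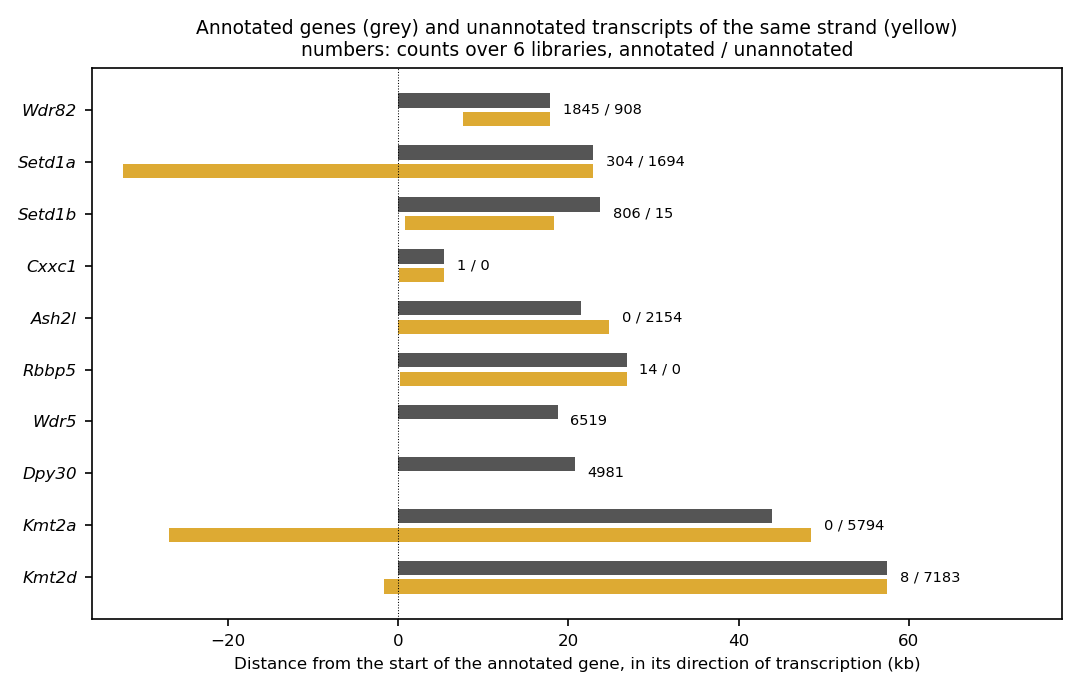
Each annotated gene (grey) and the unannotated transcript of its strand (yellow) are drawn to scale against the distance in kb from the start of the annotated gene. The numbers are counts summed over the 6 libraries, annotated before unannotated: Kmt2a, Ash2l and Kmt2d had 0, 0 and 8 counts in their own rows and 5794, 2154 and 7183 in the unannotated transcripts, whereas Setd1b kept 806 against 15.

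For Ash2l (ENSRNOG00000014875, chr16:71011332-71032790) and Kmt2a (ENSRNOG00000015133, chr8:49114990-49158971, minus strand) the annotated row held no count in any library. The deposited domain annotation gives the unannotated transcript over Ash2l a SPRY domain, and the unannotated transcript over Kmt2a a SET domain, PHD fingers and a CXXC zinc finger, which are domains of these proteins. Kmt2d (ENSRNOG00000061499, chr7:140489492-140546908, minus strand) had 99.9% of its counts in an unannotated transcript with SET and PHD domains. For these 3 genes nearly all counts of the locus stood under the unannotated transcript, and whether each came from bases of the named gene was not tested. Cxxc1 (ENSRNOG00000014614, chr18:70192493-70197867) had 1 count in all and its unannotated transcript 0. Rbbp5 (ENSRNOG00000021289, chr13:49250301-49277152) had 1, 1 and 2 counts in si-NC and 3, 6 and 1 in the si-DYRK1A-labelled libraries, and its unannotated transcript 0. The unannotated transcripts covered 98.9% of Cxxc1 and 99.2% of Rbbp5. These low counts do not show that the mRNAs were missing, since the way the table was counted could not be examined, and no comparison was made for either gene.

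Comparing the si-DYRK1A-labelled libraries with si-NC asked whether the mRNA of Wdr82 or of its complexes differed after transfection with the siRNA. Enough counts for a test were found in 5 of the 10 annotated rows and in 5 of the 8 unannotated transcripts. None of the 10 passed an adjusted p of 0.05 in the quasi-likelihood test of edgeR, while 1 (Wdr5) had an unadjusted p below 0.05, and 0 passed in DESeq2 or limma-voom. Over all 15513 features tested, 15.2% passed (8.03% with a higher and 7.19% with a lower level after si-DYRK1A by the labels). The median absolute log2 fold change was 0.09 over the 10 rows and 0.18 over all features. The median standard error over all features was 0.147, and those of the 10 rows ran from 0.0504 to 0.204. These medians were therefore not taken at equal precision, and whether the members changed less than other features was not tested. In bulk RNA, fewer cells of a type and less RNA per cell cannot be told apart, which holds for every value below.

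Wdr82 differed by less than the spread between replicates. Its row held 302, 329 and 307 counts in si-NC and 279, 306 and 322 in the si-DYRK1A-labelled libraries. Scaled to library size, this was 27.5 CPM ± 1.67 (SD, n = 3) in si-NC, and the lowest and the second highest library were both labelled si-DYRK1A, so that the groups overlapped. The log2 fold change was -0.02 (SE 0.0914, 95% interval -0.21 to 0.17, adjusted p = 0.915, edgeR), and an exact two-sided permutation test over the libraries gave p = 0.7, where 0.1 is the smallest value possible. The interval spans a level from 0.864 to 1.12 times that in si-NC.

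The unannotated transcript over Wdr82 did not differ beyond the spread either. It held 130, 161 and 177 counts in si-NC and 156, 139 and 145 in the si-DYRK1A-labelled libraries, which all lay within the range of si-NC. It stood at a log2 fold change of -0.06 (SE 0.119, adjusted p = 0.814, edgeR). The unannotated transcript took 33.2% ± 3.25 (SD, n = 3) of the counts of both rows in si-NC and 32.7% ± 2.73 (SD, n = 3) after si-DYRK1A, so the balance of the 2 rows did not differ beyond the spread (exact permutation test, p = 0.9). With both rows summed, a choice made after the data had been seen, the log2 fold change was -0.03 (SE 0.0735, 95% interval -0.19 to 0.12, adjusted p = 0.826, edgeR).

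**Figure D2:**
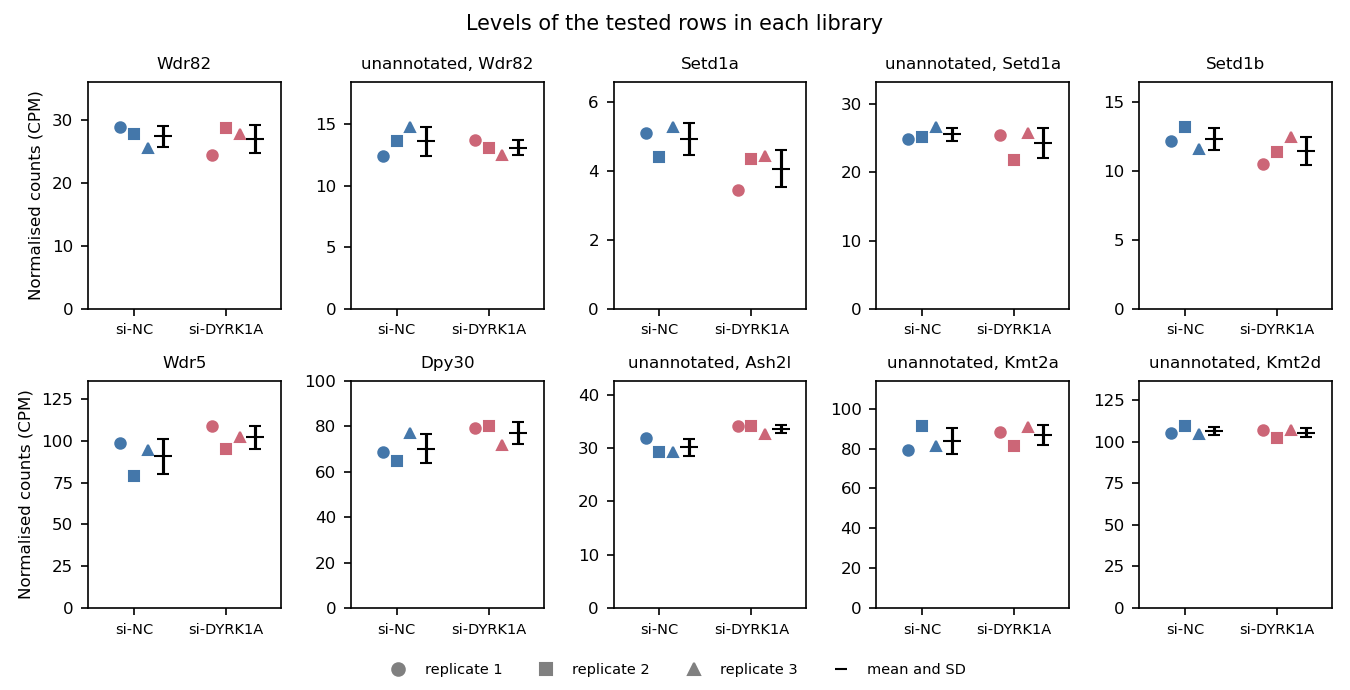
Normalised counts (CPM, y axis from 0) of the 10 tested rows in each library, with si-NC in blue and the si-DYRK1A-labelled libraries in red; symbols give the replicate number, and the black bar gives mean and SD (n = 3). The groups overlap in every panel except the unannotated transcript over Ash2l, where the si-NC libraries reach 31.8 CPM and the others start at 32.7 CPM.

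The SETD1 enzymes, which use WDR82 as a subunit, were also without a call. Setd1a (ENSRNOG00000055028, chr1:199225100-199247988) held 53, 52 and 63 counts in si-NC and 39, 46 and 51 in the si-DYRK1A-labelled libraries. The 3 latter libraries were all below the 3 of si-NC in counts, but not after scaling, where the lowest si-NC library had 4.40 CPM and the highest of the others 4.41 CPM. The log2 fold change of -0.28 was the largest of the 10 in size and had the largest error (SE 0.204, 95% interval -0.70 to 0.15, adjusted p = 0.417, edgeR). An unannotated transcript that covers all of Setd1a also covers Fbxl19 and Orai3, and it carries the SET and RNA recognition domains of SETD1A in the deposited annotation. It held 84.8% of the counts of both rows, from 231 to 319 a library, and cannot be assigned to Setd1a alone. Its log2 fold change was -0.07 (SE 0.0935, adjusted p = 0.681, edgeR).

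Setd1b (ENSRNOG00000001337, chr12:38845621-38869346, minus strand) held 127, 156 and 139 counts in si-NC and 119, 121 and 144 in the si-DYRK1A-labelled libraries. The ranges overlapped, as the third si-DYRK1A-labelled library lay above the first and the third of si-NC. Setd1b had a log2 fold change of -0.11 (SE 0.128, adjusted p = 0.644, edgeR). Its unannotated transcript, with 1 to 7 counts a library, was not tested.

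Among the core subunits, Wdr5, Dpy30 and the unannotated transcript over Ash2l had values above 0, and none passed the test. WDR5 is the propeller protein that ties the catalytic subunit to the core, and its gene (ENSRNOG00000008212, chr3:6061940-6080680) held 1026, 934 and 1131 counts in si-NC and 1236, 1009 and 1183 in the si-DYRK1A-labelled libraries. The first si-NC library, at 98.4 CPM, lay above the second si-DYRK1A-labelled library, at 95.01 CPM, and the groups overlapped by these libraries. The log2 fold change of Wdr5 was 0.17 (SE 0.0777, 95% interval 0.0041 to 0.34, unadjusted p = 0.0455, adjusted p = 0.172, edgeR). With single libraries left out, its lowest value was 0.08, without the second si-NC library (adjusted p = 0.463, edgeR). Its highest was 0.23, without the first si-NC library (adjusted p = 0.0748, edgeR).

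Dpy30 (ENSRNOG00000027126, chr6:22296128-22316894) encodes the small subunit that binds ASH2L. It held 714, 766 and 922 counts in si-NC and 902, 850 and 827 in the si-DYRK1A-labelled libraries, where the third si-NC library was the highest of all in counts. Dpy30 had a log2 fold change of 0.13 (SE 0.0689, 95% interval -0.0092 to 0.28, adjusted p = 0.216, edgeR).

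The unannotated transcript over Ash2l held 332, 345 and 350 counts in si-NC and 387, 362 and 378 in the si-DYRK1A-labelled libraries. Every si-DYRK1A-labelled library lay above every si-NC library, with 33.6 CPM ± 0.779 (SD, n = 3) against 30.1 CPM ± 1.51 (SD, n = 3). It was the only one of the 10 rows whose groups did not overlap, which 31.5% of all tested features also showed. Its log2 fold change was 0.16 (SE 0.0810, 95% interval -0.0078 to 0.33, adjusted p = 0.206, edgeR), and the exact permutation test gave its smallest possible p of 0.1. The unannotated transcript runs 3372 bases past the 3′ end of the annotated gene.

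The unannotated transcripts over the KMT2 enzymes had the smallest standard errors of the 10 rows. That over Kmt2a held 826, 1079 and 970 counts in si-NC and 1004, 865 and 1050 in the si-DYRK1A-labelled libraries, and the highest and the lowest library were both si-NC. Its log2 fold change was 0.05 (SE 0.0629, adjusted p = 0.659, edgeR). That over Kmt2d held 1099, 1293 and 1250 counts in si-NC and 1214, 1088 and 1239 in the other group, and these ranges overlapped. Its log2 fold change of -0.01 had the narrowest interval of the 10 (SE 0.0504, 95% interval -0.12 to 0.09, adjusted p = 0.909, edgeR), a level of 0.922 to 1.07 times that in si-NC.

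Levels of different genes were compared on the scale of FPKM, which divides counts by gene length. With the covering unannotated transcripts added, Dpy30 stood highest at 92.7 FPKM over the 6 libraries (range 82.1 to 100.8), followed by Wdr5 at 30.9 FPKM (25.4 to 34.8) and Wdr82 at 17.8 FPKM (16.3 to 18.7). The ranges of these 3 did not overlap. Kmt2a at 5.17 FPKM, Kmt2d at 4.42 FPKM and Ash2l at 4.25 FPKM came next. The ranges of Kmt2d and Ash2l overlapped, so that their order is not set. For Kmt2a, Kmt2d and Ash2l, nearly all counts were divided by the lengths of the unannotated transcripts, 16374, 23804 and 7429 bases. The annotated rows had 11532, 18552 and 2423 bases, so that the place of these genes in the order rests on the length used. Setd1b had 2.02 FPKM and Setd1a, without the shared unannotated transcript, 0.734 FPKM, and these ranges did not overlap. The transcript left out held 84.8% of the counts of both Setd1a rows and stood at 1.42 FPKM. The order of Setd1a and Setd1b is therefore not set. Rbbp5 and Cxxc1 stood at 0.0542 and 0.00535 FPKM. Without the unannotated transcripts, Wdr82 had 15.6 FPKM, above 63.1% of the 8828 protein-coding genes with a mean over 0.5 FPKM, and Dpy30 lay above 89.8% of them. By the annotated rows, Dpy30 had 5.96 times and Wdr5 1.98 times the level of Wdr82, and Wdr82 7.85 times that of Setd1b. Annotated rows of covered genes may have lost counts to unannotated transcripts, which does not touch Wdr5 and Dpy30.

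**Figure D3:**
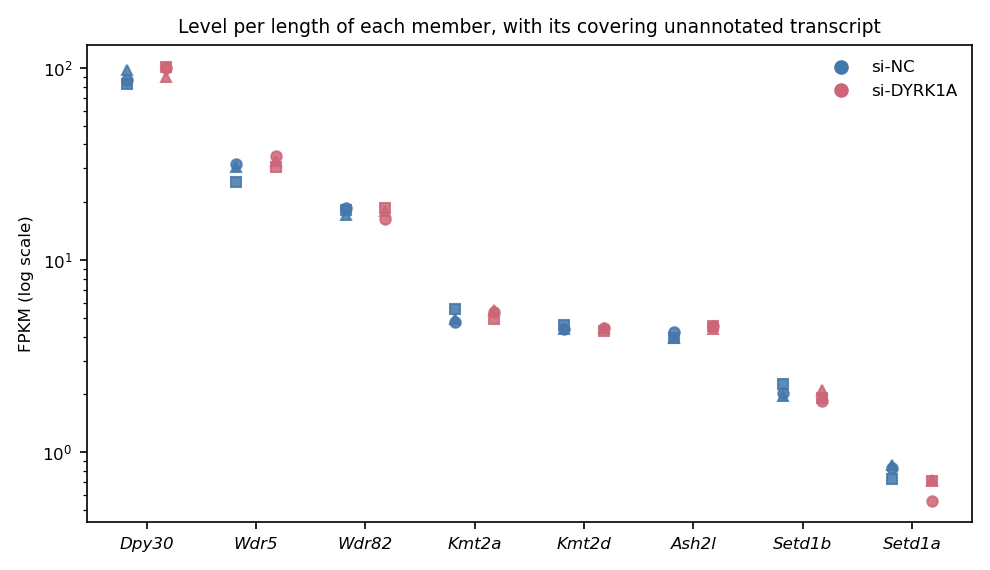
FPKM (log scale) of the 8 genes above 0.5 FPKM in each library, with si-NC in blue and the si-DYRK1A-labelled libraries in red. Covering unannotated transcripts were added, except for Setd1a, whose transcript also covers Fbxl19 and Orai3. Symbols give the replicate number. The levels fall from Dpy30 at 92.7 FPKM to Setd1a at 0.734 FPKM, a spread far wider than the distance between the groups of any gene.

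Across the 6 libraries, the correlations of the other 7 measured genes with Wdr82 were of both signs, and none was tested against 0. On the log2 CPM scale with both Wdr82 rows summed, Pearson's r with Wdr82 was 0.67 for Setd1a and 0.52 for Setd1b, and -0.30 for Ash2l, -0.64 for Wdr5, -0.42 for Dpy30, -0.36 for Kmt2a and -0.32 for Kmt2d. Among 5753 annotated genes that averaged 3 or more on the log2 CPM scale, the 5 with the highest r were Cnpy3 (0.975), RGD1311899 (0.964), Atp23 (0.963), Lypla2 (0.955) and Sepsecs (0.954). These are descriptions over 6 libraries that share their depth and scaling with both genes, and the total range of Wdr82 was small, from 38.3 to 41.9 CPM. The 5 genes were picked as the highest of 5753, and whether so high an r arises by chance was not tested.

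The rest of the H3K4 methylation pathway was read from 5 lists of 49 symbols, of which 44 had a row. Of 30 listed genes covered by an unannotated transcript, 4 had enough counts for a test, against 13 of the 14 that were not covered. In the fit of single rows, 0 of 3 tested other subunits of the KMT2 and SETD1 complexes and 0 of 2 tested genes of the other WDR82 complexes passed, none with an unadjusted p below 0.05, with Hcfc2 at -0.06 (adjusted p = 0.641) and Ppp1cb, a phosphatase subunit, at 0.07 (adjusted p = 0.316) in edgeR. The median log2 fold changes of these 2 lists were -0.01 and 0.01, against 0.0020 over all features. In the lists of demethylases, other lysine methyltransferases and readers, 1 of 3, 1 of 3 and 1 of 6 tested genes passed, and each of these 3 had a lower level after si-DYRK1A by the labels. Their medians were -0.02, -0.02 and -0.03. These counts stand beside the 15.2% of all features that passed, and the 3 genes had been seen among the calls of the study, which rest on the same libraries.

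Kdm5b, a demethylase that removes methyl groups from H3K4me3, held 1919, 2363 and 2209 counts in si-NC and 1906, 1798 and 1872 in the si-DYRK1A-labelled libraries. All si-DYRK1A-labelled libraries lay below those of si-NC. Its log2 fold change was -0.19 (SE 0.0480, adjusted p = 0.00917, edgeR), and it missed the threshold without the third si-DYRK1A-labelled library (adjusted p = 0.0590) and on FPKM values (adjusted p of 0.0763 to 0.135 in limma). Setd7, a monomethylase of H3K4, held 722, 841 and 834 counts in si-NC and 688, 624 and 665 in the other group, also without overlap. Its log2 fold change was -0.25 (SE 0.0607, adjusted p = 0.00675, edgeR).

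Phf8, a protein that reads H3K4me3 and demethylates other lysines, held 620, 721 and 757 counts in si-NC and 565, 547 and 603 in the si-DYRK1A-labelled libraries. The groups did not overlap, and the log2 fold change was -0.26 (SE 0.0652, adjusted p = 0.00812, edgeR). Phf8 missed the threshold on FPKM values (adjusted p of 0.0508 to 0.0916 in limma). With unannotated transcripts summed, 1 of 5 tested demethylases, 1 of 4 other methyltransferases and 1 of 11 readers passed, again Kdm5b, Setd7 and Phf8. Of the other WDR82 complexes, 0 of 4 tested genes passed. These counts too stand beside the 15.2% of all features that passed by single rows. The medians moved with the sums, to -0.15 for demethylases (1 of 5 above 0), 0.03 for other methyltransferases and -0.01 for readers. For the other WDR82 complexes the median was 0.18, with 3 of 4 above 0, against 0.0020 over all features. The highest of these 4, at 0.38, had an unadjusted p of 0.0242 (adjusted p = 0.113, edgeR). In the fit of sums, 1 of 6 tested other subunits passed. This was Kmt2c, the closest relative of Kmt2d, with 705, 822 and 836 counts in si-NC and 683, 610 and 698 in the si-DYRK1A-labelled libraries. The 3 latter libraries were the lowest of the 6, and the log2 fold change of Kmt2c was -0.22 (SE 0.0611, adjusted p = 0.0174, edgeR). The unannotated transcript alone, which holds all these counts of Kmt2c, missed the threshold without the second si-DYRK1A-labelled library (adjusted p = 0.0905, edgeR) and on FPKM values. In the same fit of sums 0 of 8 tested members passed, so that Kmt2c and Kmt2d stood on different sides of the threshold, a difference that was not tested itself.

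Some markers of cell types passed the threshold too. Of 6 endothelial markers, 3 (Cdh5, Tek and Tie1) were lower after si-DYRK1A by the labels. Kdr, Vwf and Emcn, which did not pass, stood at -0.01, -0.53 and 0.03. The summed level of the 6 was 170 to 189 CPM in si-NC and 138 to 144 CPM in the others. Of 5 tested cardiomyocyte markers, 3 (Actc1, Actn2 and Nppa) were higher, and the log2 fold changes of Tnnt2 and Myl3, which did not pass, were -0.14 and -0.11. Of 7 tested fibroblast markers, 2 (Lum and Postn) were higher, whereas Col1a1 stood at -0.37 (adjusted p = 0.0869, edgeR). Col3a1, Dcn, Tcf21 and Fn1, which did not pass, stood at 0.02, 0.25, 0.14 and -0.07. The summed level of the list, held mostly by Col1a1 and Col3a1, was lower in all 3 si-DYRK1A-labelled libraries than in si-NC. None of the macrophage or smooth muscle markers passed, with summed levels of 154 to 173 CPM against 138 to 159 CPM and of 689 to 722 CPM against 710 to 729 CPM. Pdgfra, Thy1, Myh11, Acta2, Pdgfrb, Rgs5, Cd68 and Cd14 had under 10 counts in every library, and each was covered by an unannotated transcript. The part of these cell types in the values of Kdm5b, Setd7, Phf8 and Kmt2c was not tested.

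**Figure D4:**
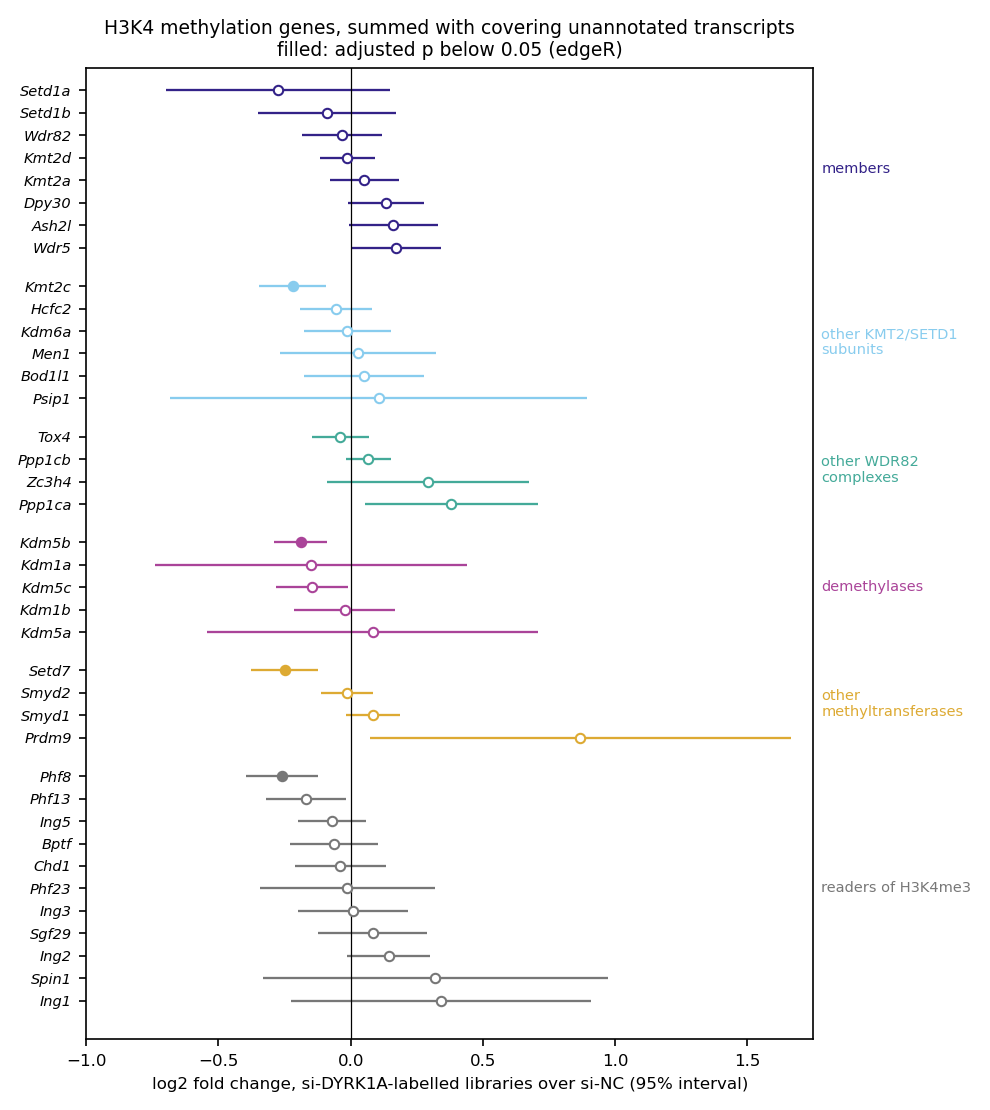
Log2 fold changes with 95% intervals for the tested members and genes of the 5 other lists, with covering unannotated transcripts summed; filled points passed an adjusted p of 0.05 in edgeR. The 8 members lie between -0.28 and 0.17 with no filled point, and the 4 filled points are Kmt2c, Kdm5b, Setd7 and Phf8.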

How the data were processed

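The authors mapped paired-end reads with HISAT2 to Rnor_6.0 according to the methods of the study, whereas the submitters' processing notes name Bowtie 0.12.2 and mm8. The identifiers are those of rat genes. The authors deposited raw counts per gene in one table and FPKM values in another. The labels name a TruSeq kit and the methods a NEBNext kit. Counting tool, annotation release and strand setting were not given in the sources used here. Reads of overlapping rows therefore cannot be told apart.

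All 6 libraries entered the fit. The deposited counts of the whole table were tested in R 4.3.3 with edgeR 4.0.16 (quasi-likelihood, robust) after TMM normalization and filterByExpr (minimum count 10, total 15), two-sided, adjusted by the Benjamini-Hochberg method over all features with a threshold of 0.05. The biological coefficient of variation was 8.82%. No 2 libraries of a group agreed within sampling noise (chi-square per degree of freedom 2.49 to 5.87). P-values measure the spread between these libraries, as the labels do not say whether the cultures came from separate litters. Single values were compared by exact permutation. CPM are counts scaled by TMM library size. A gene was summed with an unannotated transcript that spans 50% of it or more and touches no further annotated gene, and for Wdr82 a microRNA gene inside it was allowed. FPKM were tested with limma 3.58.1 on log2(FPKM + 1). DESeq2 1.42.0 and limma-voom were alternatives, beside other normalizations and count filters, the replicate block, each library left out and an absolute log2 fold change of 1. Scripts were tested on simulated data.

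The members, lists and rules were chosen with earlier results of these data known. The named genes were the members, Dyrk1a, called genes of each list, or its most counted gene where none passed, and the 5 genes most correlated with Wdr82. Promoter and microRNA sequences are from RefSeq (GRCr8). Protein sequences were not used here.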

Additional observations from a re-analysis of the deposited data

How the results depend on the processing

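Of 173 values for the 10 tested rows under other settings, 1 passed the threshold and 5 differed in sign, all of them far from significance. Without si-NC replicate 1 the log2 fold change of Wdr82 was 0.016 and without si-DYRK1A replicate 1 it was 0.045, that of the unannotated transcript over Setd1a at 0.0017 without si-DYRK1A replicate 2, and that over Kmt2d at 0.0052 without si-NC replicate 2 and 0.0081 without si-DYRK1A replicate 2. With each library left out in turn, Wdr82 ranged from -0.076 to 0.045, the unannotated transcript over Setd1a from -0.12 to 0.0017 and that over Kmt2d from -0.033 to 0.0081. Among values that kept their sign, Wdr5 ranged from 0.08 to 0.23, Dpy30 from 0.08 to 0.20, Setd1a from -0.35 to -0.17, Setd1b from -0.17 to -0.05, and the unannotated transcripts over Ash2l, Kmt2a and Wdr82 from 0.13 to 0.20, from 0.01 to 0.11 and from -0.12 to -9.0e-05. In each of these fits 0 members were called.

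The replicate numbers showed no pairing of the libraries. Deviations of same-numbered libraries correlated at 0.0578, -0.0261 and -0.0041, and those of differently numbered ones at -0.0553 to 0.0595. Whether same-numbered cultures shared a preparation was not tested. With the replicate number as a block, 1 member was called, Wdr5 (log2 fold change 0.17, adjusted p = 0.0486, edgeR).

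Of all features, 1199 were called on log2(FPKM + 1) and 1180 on log2(FPKM + 0.1) above 0.5 FPKM (662 and 655 higher, 537 and 525 lower), 591 without that filter (344 higher, 247 lower), and 200 with a further limit of 1 on the absolute log2 fold change (132 higher, 68 lower). With each library left out, 1614 to 2210 were called (854 to 1123 higher, 746 to 1087 lower). The cause was not tested, except that a further threshold lowers a count by construction. Among the demethylases, 0 were called in the 3 fits of FPKM, at a log2 fold change of at least 1 and without si-DYRK1A replicate 3 (0 to 1 over the libraries left out). Among readers, 0 were called in the same FPKM fits and at that fold change, where 0 of the other methyltransferases were called too. With unannotated transcripts summed, with or without microRNA genes allowed, 1 of the other KMT2 and SETD1 subunits was called. Adding unannotated transcripts moved the level of Wdr82 from 15.6 to 17.8 FPKM.

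Cxxc1 and Rbbp5 had too few counts to be compared, and the cause was not tested.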
